A study of Rattus norvegicus with 192 samples.

Results

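The potassium channel genes were taken as every gene of the deposited nucleus accumbens table whose symbol is Kcn followed by letters and a number, which gave 93 of 38354 genes. These comprised 67 genes for pore-forming subunits, 10 for electrically silent modifier subunits and 16 for auxiliary subunits. Messenger RNA was measured by poly(A) RNA sequencing of tissue labelled as nucleus accumbens core from outbred heterogeneous stock rats, a population bred from several inbred founder strains. No treatment, age, sex, genotype or allele was given in the labels used here for any group, and the extraction was recorded as unknown. Of 192 labelled libraries, 159 had a column in the table: 67 libraries named by a number alone (numeric label), 77 whose name began with E21 (E21 label), 12 E21 libraries whose name had been corrected after a genotype mismatch (corrected E21 label), 2 whose name began with AA1, and 1 other corrected library. The earlier labels of the corrected libraries all began with unknown, so their present names came with the genotype fix. What the formats of the names stand for was not given in the sources used here. Each library had a rat name of its own, and nothing stated how tissue was collected from each animal, so the spread between libraries may be partly technical.

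The libraries did not all have the expression profile of their labelled tissue. Drd1, the D1 dopamine receptor gene of striatal projection neurons, reached at least 100 CPM (counts scaled to a library total of 1e+06) in 147 libraries, called Drd1 libraries below: 56 numeric, 76 E21, 12 corrected E21, 2 AA1 and the other corrected one. Th, which encodes tyrosine hydroxylase and marks dopamine neurons, reached at least 100 CPM in 11 others, called Th libraries: 10 numeric and 1 E21. Leaving out Drd1 itself, the summed level of 7 markers of medium spiny neurons was 2434 to 6841 CPM in Drd1 libraries and 298.5 to 492 CPM in Th libraries. Leaving out Th, the sum of 6 midbrain dopamine markers was 18.6 to 75.1 against 953 to 2994 CPM. By their sum, the markers of the labelled tissue were thus lower in the Th libraries. Of these 7, 6 were lower with ranges apart and a log2 difference of at least 1, and none of them was at 0. Other cell classes also differed between the sets. Median sums, Drd1 against Th libraries, were 15914 against 29598 CPM for 6 oligodendrocyte markers, 1621 against 4128 CPM for 5 astrocyte markers, 15.7 against 122 CPM for 2 other midbrain and diencephalic glutamatergic markers, 66.3 against 209.9 CPM for 4 mural markers, 16.3 against 178 CPM for 4 meningeal fibroblast markers and 326 against 126 CPM for 4 GABA interneuron markers. The GABA interneuron markers did not all go the same way. With ranges apart and a log2 difference of at least 1, 2 of the 4 were lower and 1 was higher in Th libraries. The median sum of 8 cortical glutamatergic markers was 296 CPM in Drd1 against 106 CPM in Th libraries. Of all these classes, the ranges of the oligodendrocyte, astrocyte, mural, meningeal and cortical sums overlapped. Numeric library 3 met neither cutoff. Its 8 cortical glutamatergic markers summed to 2737 CPM, above the 1486 CPM of the highest Drd1 library, and it was left out of both sets. Total estimated counts, in units of 1e+06, were 14.6 to 61.2 in Drd1 libraries (median 22.9) and 18.2 to 34.3 in Th libraries (median 24.1). CPM values were not corrected for transcript length, so levels are compared between libraries and never between genes.

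Potassium channels let potassium leave or enter the cell along its gradient and so set resting potential, spike shape and firing rate. Voltage-gated (Kv) channels open on depolarization, inward rectifiers (Kir) pass current near and below rest, K2P channels carry leak current, and SK, BK and Slack channels respond to internal calcium or sodium. In medium spiny neurons of the striatum, Kir2 channels and A-type Kv channels hold the cell far from threshold, while midbrain dopamine neurons are paced with the help of Kv4.3, SK3 and G-protein-gated Kir (GIRK) channels.

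Promoter sequence was available as RefSeq windows on the rat build GRCr8. The table named no build, but all 93 deposited positions coincided with the end of the same gene in GRCr8. Of 63 members with a window, 29 had one at the deposited start site. The 150 bases upstream of that site are shown 5′ to 3′ on the gene's strand for 3 genes lower and 2 genes higher in the Th libraries, as the regulatory sequence next to the genes compared here. Capitals mark a GC box (GGGCGG on either strand) or an E box (CACGTG).
Kcnj4 (lower; chr7:112954548-112954697, minus strand): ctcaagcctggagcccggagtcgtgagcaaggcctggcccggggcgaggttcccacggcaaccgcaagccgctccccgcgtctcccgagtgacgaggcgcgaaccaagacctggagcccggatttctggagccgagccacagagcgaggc
Kcnj2 (lower; chr10:96560075-96560224, plus strand): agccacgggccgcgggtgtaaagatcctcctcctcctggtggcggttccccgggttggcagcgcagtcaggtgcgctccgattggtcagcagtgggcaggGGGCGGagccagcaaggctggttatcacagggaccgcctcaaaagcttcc
Kcnh4 (lower; chr10:86188477-86188626, minus strand): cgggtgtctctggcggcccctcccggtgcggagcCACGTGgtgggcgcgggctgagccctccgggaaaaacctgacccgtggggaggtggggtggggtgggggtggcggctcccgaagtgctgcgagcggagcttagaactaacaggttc
Kcnd3 (higher; chr2:195626166-195626315, plus strand): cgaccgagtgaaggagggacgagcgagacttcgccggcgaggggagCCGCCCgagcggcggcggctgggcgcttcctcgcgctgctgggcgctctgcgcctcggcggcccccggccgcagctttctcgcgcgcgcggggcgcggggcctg
Kcnc1 (higher; chr1:106039097-106039246, plus strand): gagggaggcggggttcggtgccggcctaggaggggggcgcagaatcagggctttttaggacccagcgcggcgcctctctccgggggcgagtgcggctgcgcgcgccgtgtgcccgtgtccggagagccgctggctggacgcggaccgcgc
The 5 sequences were rich in G and C, from 66% in Kcnj2 to 80% in Kcnd3. They are a part of the 5 lower and 3 higher members with such a window. Those not shown were Kcna6 (higher) and Kcnk2 (lower), at 43.3% each, and Kcnmb4 (lower), at 84%. Over the 29 members the median was 67.3% G or C with 8 CpG dinucleotides per window, against 50.7% and 3 over all 19339 windows of the same length. A GC box lay in 12 of the 29 and in 20.9% of all windows, and an E box in 1 of the 29 and in 3.34%. A cAMP response element (TGACGTCA) was in 1.22% of all windows and a TATA box (TATAAA) in 9.54%, with neither among the 29. All motifs were searched on both strands, no motif contains another, and a match is a description of letters only.

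The first comparison set the 11 Th libraries against the 147 Drd1 libraries. Because both sets were read from expression in these same libraries, the difference is a description without a test. A gene was counted where its mean was at least 1 CPM in both sets. It is called higher or lower where the ranges of the sets were apart and the difference of mean log2(CPM + 1), Th minus Drd1, was at least 1. Of the 93 members, 76 were counted, 11 were under 1 CPM in both sets, 4 reached 1 CPM in the Drd1 libraries only and 2 in the Th libraries only. Among the 76, 9 were higher in Th libraries (3.65% of the 14773 counted genes were) and 19 lower (4.31% of all), or 11.8% and 25.0% of the members. The members' median difference was -0.02, beside 0.04 over all counted genes, and the median size of the difference regardless of sign was 1.00 against 0.32. A difference of at least 1 in either direction was found for 38 members and for 13.0% of all genes. Restricted to numeric libraries, 10 against 56, the counts were 9 higher and 22 lower, with 7 and 18 of them among those of the full comparison. The share of all genes called in this restricted comparison was not computed. These 2 counts therefore cannot be read as particular to potassium channel genes. The cell classes whose markers moved with the sets are given above, and their part in these counts was not tested. In bulk tissue, fewer cells of a type and less RNA per cell cannot be told apart.

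**Figure D1:**
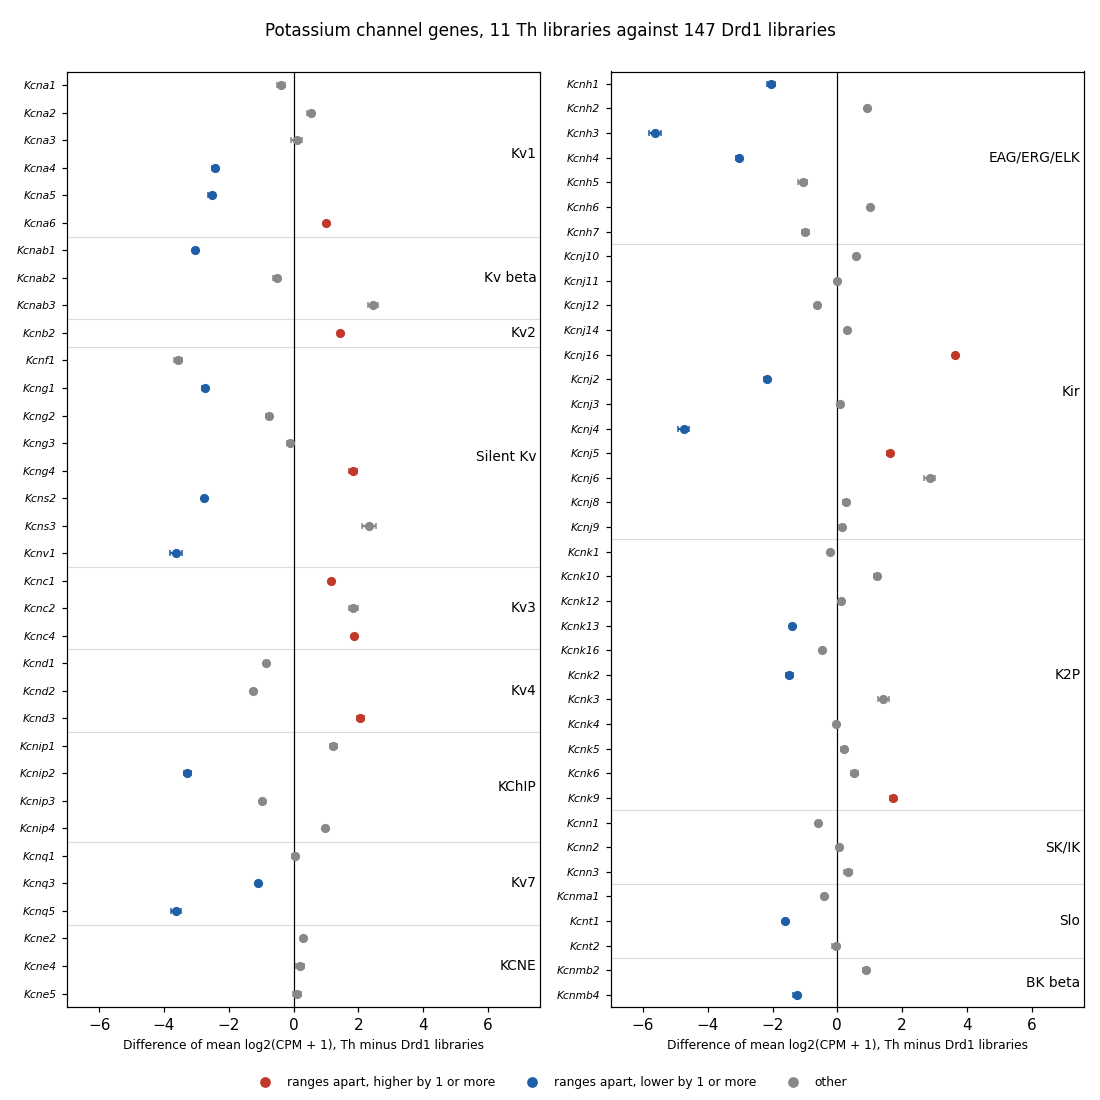
Difference of mean log2(CPM + 1), 11 Th libraries minus 147 Drd1 libraries, for 72 of the 76 counted potassium channel genes by subfamily; points are differences and bars their standard errors. Red points are the 9 genes called higher and blue points 18 of those called lower, with Kcnh3 farthest to the left at -5.63 and Kcnj16 farthest to the right at 3.63.

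The Kv1 genes, whose pore subunits carry low-threshold axonal and A-type currents, were split: 2 of 6 counted members lower, 1 higher and 3 neither. Kcna4, which encodes the rapidly inactivating Kv1.4, ranged from 28.6 to 90.1 CPM in Drd1 libraries (median 54.1) and from 6.36 to 11.5 CPM in Th libraries (median 8.75), a difference of -2.44 (SE 0.08). Kcna5, for the delayed rectifier Kv1.5, ranged from 24.4 to 64.2 CPM (median 44.1) against 3.86 to 8.83 CPM (median 7.56), a difference of -2.53 (SE 0.11). Every Drd1 library was above every Th library for both genes. Kcna6, for Kv1.6, went the other way, from 83.1 to 249 CPM (median 148) against 262 to 332 CPM (median 294). Its difference of 1.01 lay at the threshold and was 0.93 within the numeric label, where it was no longer called, nor was it under median-of-ratios scaling or with a pseudocount of 5. Kcna1 and Kcna2, for the axonal Kv1.1 and Kv1.2, overlapped between the sets with differences of -0.39 and 0.52. Kcna1, Kcna5 and Kcna6 are neighbours on chromosome 4, with start sites 116 kb apart between Kcna5 and Kcna1 and 102 kb between Kcna1 and Kcna6.

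Kv beta subunits bind Kv1 channels in the cytoplasm. Kcnab1, whose product speeds inactivation, was lower in the Th libraries: 189 to 450 CPM in Drd1 libraries (median 323) against 31.3 to 56.9 CPM (median 36.7), a difference of -3.04 (SE 0.08). Kcnab3 differed by 2.45 in the opposite direction, but 1 Drd1 library, corrected E21 library 8 at 26.2 CPM, exceeded the lowest Th library at 25.0 CPM. Kcnab2 differed by -0.53 with overlapping ranges.

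Of the Kv2 delayed rectifiers, Kcnb2 was higher in Th libraries, with 3.81 to 18.4 CPM (median 9.43) against 22.4 to 33.7 CPM (median 28.5) and a difference of 1.42 (SE 0.06). Silent subunits form no channel alone and modify Kv2 channels. Of 8 counted, Kcng1 (-2.75), Kcns2 (-2.76) and Kcnv1 (-3.63) were lower, Kcng4 (1.83) was higher, and 4 were neither. Kcnv1 was 31.3 to 70.3 CPM in Drd1 libraries (median 52.8) and 0.98 to 6.62 CPM in Th libraries (median 3.84). Kcng4 was 4.08 to 21.1 CPM (median 10.4) against 24.6 to 71.4 CPM (median 39.6). Thus the silent subunits held genes on both sides, with gaps between the sets in each direction. Kcnf1 differed by -3.58 and yet was not called. Its Drd1 libraries had a median of 89.9 CPM, but E21 libraries 5 and 76, at 3.85 and 7.91 CPM, lay within the Th range of 3.20 to 9.18 CPM. Kcns3 differed by 2.32, with 1 Drd1 library above the lowest Th library.

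Kv3 channels open and close rapidly and support fast spiking. The 4 Kv3 genes had a median difference of 1.5, with 2 higher and 2 neither. Kcnc4 was 11.9 to 69.2 CPM in Drd1 libraries (median 27.5) and 77.9 to 138 CPM in Th libraries (median 102), a difference of 1.86 (SE 0.08). Kcnc1, whose start-site sequence is shown above, was 19.8 to 70.5 CPM (median 46.8) against 83.8 to 140 CPM (median 98.3), a difference of 1.17 that was 0.94 within the numeric label and there not called. For Kcnc2 (1.84), 2 Drd1 libraries exceeded the lowest Th library.

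Kv4 channels carry the somatic and dendritic A-type current, and KChIP proteins are their calcium-binding partners. Kcnd3, for Kv4.3, was higher in Th libraries: 21.4 to 78.4 CPM (median 51.8) against 129 to 289 CPM (median 231), a difference of 2.06 (SE 0.11). Kcnd2, for Kv4.2, was 21.1 to 231 CPM (median 173) against 57.5 to 87.2 CPM (median 67.8). The Kcnd2 difference of -1.25 was not called because 5 Drd1 libraries lay below the highest Th library. Kcnd1 differed by -0.84. A gene outside the naming rule, Kcnd2l1, was at 0 to 6.14 CPM in Drd1 libraries and 0.33 to 1.25 CPM in Th libraries. Its name marks it as similar to Kcnd2, and how reads were divided between both genes was not tested. Kcnip2, for KChIP2, was lower in Th libraries, with 127 to 327 CPM (median 250) against 17.6 to 38.6 CPM (median 23.8) and a difference of -3.28 (SE 0.11). The other KChIP genes were Kcnip1 (1.22, overlapping), Kcnip3 (-0.97) and Kcnip4 (0.96). Ranges of Kcnip3 and Kcnip4 were apart but the differences were just under 1, as for Kcnh2 at 0.93. Just inside the threshold were Kcna6 at 1.01 and Kcnq3 at -1.10.

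**Figure D2:**
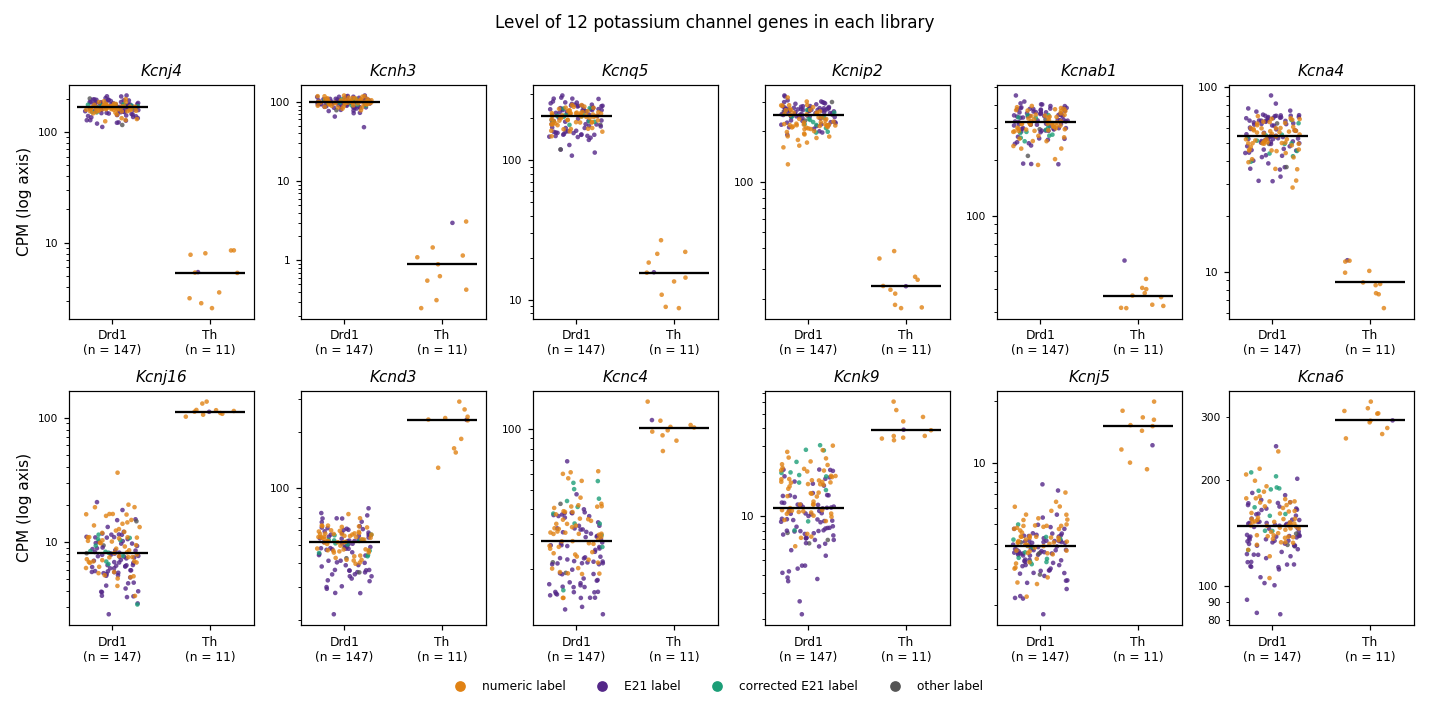
Level of 12 potassium channel genes in each library (CPM, log axis; each panel has its own axis range), with 147 Drd1 libraries and 11 Th libraries; points are libraries coloured by label and the line is the median. The top row shows genes lower in Th libraries, such as Kcnj4 at 2.57 to 8.55 CPM against 111 to 214 CPM, and the bottom row genes higher there, such as Kcnj16 at 102 to 134 CPM against 2.62 to 36.1 CPM.

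Kv7 channels carry the M current, which muscarinic receptors suppress. Of 5 Kv7 genes, 3 were lower in the Th libraries and 2 were neither, with a median of -1.10. Kcnq5 was 108 to 292 CPM in Drd1 libraries (median 207) against 8.73 to 26.8 CPM (median 15.7), a difference of -3.63 (SE 0.15). Kcnq3 was 118 to 290 CPM (median 218) against 81.2 to 113 CPM (median 95.2), a difference of -1.10. Libraries of both sets stood closer for Kcnq3 than for Kcnq5, with ranges apart for both. KCNE proteins are small auxiliary subunits of Kv7 and other channels. None of the 3 counted KCNE genes was called, the largest difference being 0.29 for Kcne2.

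The Kcnh family comprises EAG, ERG and ELK channels. Of 7 counted genes 3 were lower, 0 higher and 4 neither, with a median of -1.06. Kcnh3, for the ELK channel Kv12.2 of forebrain neurons, was 47.98 to 121 CPM in Drd1 libraries (median 99.1) and 0.25 to 3.09 CPM in Th libraries (median 0.89). This was the largest difference of any member at -5.63 (SE 0.18), or 84.5-fold between mean levels. Its Th mean was close to the filter of 1 CPM and fell under it in the 10 numeric libraries, where the difference was -5.76. Kcnh4, also an ELK channel, was 17.6 to 42.5 CPM (median 28.7) against 1.48 to 3.36 CPM (median 2.44), a difference of -3.04 (SE 0.09). Kcnh1, for EAG1, was 59.99 to 145 CPM (median 107) against 15.3 to 37.7 CPM (median 25.5), a difference of -2.04. The ERG genes Kcnh2, Kcnh6 and Kcnh7 differed by 0.93, 1.00 and -0.99 and none was called. For Kcnh6, 1 Drd1 library lay above the lowest Th library.

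Inward rectifiers held the members of opposite sign and large size. Kcnj4, for the strong rectifier Kir2.3, was 111 to 214 CPM in Drd1 libraries (median 167) and 2.57 to 8.55 CPM in Th libraries (median 5.39), a difference of -4.74 (SE 0.16) or 29.7-fold. Kcnj2, for Kir2.1, was 31.1 to 95.0 CPM (median 60.7) against 9.05 to 17.9 CPM (median 13.2), a difference of -2.18 (SE 0.09). Kcnj12, for Kir2.2, differed by -0.62, and Kcnj14, for Kir2.4, by 0.31 in the other direction, both with overlapping ranges.

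Kcnj16, for Kir5.1, was 2.62 to 36.1 CPM in Drd1 libraries (median 8.09) and 102 to 134 CPM in Th libraries (median 112), a difference of 3.63 (SE 0.06) or 12.6-fold. Kir5.1 pairs with Kir4.1 of glia, whose gene Kcnj10 differed by 0.57 with 8 Drd1 libraries above the lowest Th library. Astrocyte markers were also higher: the sum of 5 was 969 to 2518 CPM in Drd1 libraries and 2234 to 6226 CPM in Th libraries, 3 of 5 were called higher and none was at 0 in either set, and their part in the Kcnj16 difference was not tested. Kcnj16 and Kcnj2 start 70.9 kb apart on chromosome 10 and differed in opposite directions.

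The GIRK genes, whose channels open after activation of Gi-coupled receptors, differed unequally. Kcnj6, for the GIRK2 subunit known from dopamine neurons, was 0.98 to 74.5 CPM in Drd1 libraries (median 13.2) and 55.1 to 152 CPM in Th libraries (median 109), a difference of 2.85 (SE 0.18). It was not called because numeric library 9 held 74.5 CPM. Kcnj5, for GIRK4, was 1.81 to 7.82 CPM (median 3.90) against 9.27 to 19.9 CPM (median 15.1), and was called higher at 1.62 (SE 0.10). Kcnj3 and Kcnj9, for GIRK1 and GIRK3, differed by 0.08 (SE 0.10) and 0.13 (SE 0.10) with overlapping ranges, and by -0.27 and -0.13 within the numeric label. Of the genes for ATP-sensitive channels, Kcnj11 was 23.6 to 42.0 CPM (median 33.2) against 28.5 to 35.8 CPM (median 32.8), a difference of 0.00 (SE 0.04), and Kcnj8 differed by 0.26.

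K2P genes gave 1 higher, 2 lower and 8 neither of 11 counted. Kcnk9, for the acid-sensitive TASK-3, was 2.15 to 30.6 CPM in Drd1 libraries (median 11.4) and 33.1 to 60.7 CPM in Th libraries (median 38.7), a difference of 1.72 (SE 0.10). Its partner TASK-1, from Kcnk3, differed by 1.42 with 8 Drd1 libraries above the lowest Th library. Kcnk2, for the mechanosensitive TREK-1, was lower, with 70.3 to 137 CPM (median 105) against 26.1 to 48.4 CPM (median 40.6) and a difference of -1.48. Kcnk13, for THIK-1 of microglia, was also lower, with 4.83 to 15.2 CPM (median 10.3) against 2.63 to 4.68 CPM (median 3.04) and a difference of -1.41 that was not called with a pseudocount of 5. The summed level of 5 microglial markers overlapped between the sets (235 to 520 against 254 to 371.3 CPM).

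None of the calcium-activated SK genes was called between the sets. Kcnn2 differed by 0.05 (SE 0.04), Kcnn3, for SK3, by 0.34 (SE 0.12), and Kcnn1 by -0.59 (SE 0.04), all with overlapping ranges. Of the large-conductance channels, Kcnma1, for the BK pore, differed by -0.41 and was not called. Kcnmb4, the neuronal BK beta subunit, was 24.1 to 65.5 CPM (median 36.4) against 10.1 to 20.5 CPM (median 14.1), a difference of -1.26 (SE 0.10). Kcnt1, for the sodium-activated Slack, was 43.4 to 152 CPM (median 97.2) against 24.7 to 39.6 CPM (median 30.6), a difference of -1.61 (SE 0.06), while Kcnt2 differed by -0.05.

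The remaining 17 members were not counted. Kcnk7 was 0.24 to 4.07 CPM in Drd1 libraries and 0 to 0.19 CPM in Th libraries, and its ranges were apart. Kcnj15, Kcns1 and Kcnn4 also had a mean of at least 1 CPM in the Drd1 libraries only, with overlapping ranges. Kcnmb1 (median 0.88 against 4.29 CPM) and Kcnj13 (median 0.25 against 1.62 CPM) reached 1 CPM on average in the Th libraries only. The other 11, among them Kcna10 and Kcnu1 with every Th library at 0, were under 1 CPM in both sets.

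Proteins that bind or accompany potassium channels were taken as 16 genes chosen with earlier results of these data known, of which 14 were counted. Called higher were 3, the hyperpolarization-activated cation channel genes Hcn2 (median 122 against 310 CPM, difference 1.30), Hcn3 (1.76) and Hcn4 (1.73), and none was lower. The Kv4 partners Dpp6 and Dpp10 differed by 0.24 and 0.41, and the sulfonylurea receptor genes Abcc8 and Abcc9, partners of Kcnj11 and Kcnj8, by 0.01 and 0.25. The Kv2 partner Amigo1 differed by 0.47, and the Kv1-associated Cntnap2 and Lgi1 by -0.82 and -0.40. Ank3, for the scaffold ankyrin-G of the axon initial segment, differed by -0.33. The BK gamma subunit genes Lrrc55 and Lrrc38 differed by 0.96 and 0.63, whereas Lrrc26 and Lrrc52 were under 1 CPM in both sets.

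Among the 147 Drd1 libraries the members also varied. The standard deviation of log2(CPM + 1) had a median of 0.30 over the 80 members with a mean of at least 1 CPM and of 0.24 over all 15327 such genes, and it reached 0.5 in 15.0% of members and 5.07% of all genes. At a mean of at least 10 CPM, Kcnj6 varied most (SD 1.03), then Kcnf1 (0.68), Kcnk9 (0.66), Kcnj3 (0.65) and Kcnc2 (0.60). The least variable were Kcnab2 and Kcnn2 (0.13 each), Kcnj12 (0.15), and Kcnj11 and Kcnh3 (0.18 each). The lowest Drd1-library value of 22 of the 76 counted members came from E21 library 5, whereas the next library held 8. How often E21 library 5 was lowest over all genes was not counted, so the 22 have no background beside them. That library also had the highest summed level of 4 GABA interneuron markers among Drd1 libraries (1219 CPM against a median of 326 CPM) and the lowest astrocyte and endothelial sums. Calls in the comparison of Th with Drd1 libraries numbered the same 9 and 19 without it.

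A score of cortical markers, the mean log2(CPM + 1) of 8 cortical glutamatergic genes, ranged from 1.13 to 6.00 among the Drd1 libraries (median 3.86). The members were followed along this score in a linear model with the label groups (limma, 2-sided, Benjamini-Hochberg adjustment over 15327 genes, threshold 0.05), a step chosen after the data were seen. Of 80 members, 33 rose with the score (19.6% of all genes did), 26 fell (31.1% of all) and 21 did neither. All 4 Kv3 genes rose with it, and 4 of 5 Kv7 and 3 of 3 Kv4 genes fell. Kcnj6 rose by 0.82 (SE 0.03) log2 units per unit of score (adjusted p = 5.23e-56 by limma), with slopes of 0.95 within the numeric label and 0.75 within E21. The SD of Kcnj6 left after the score was 0.39. Further genes that rose were Kcnj3 (0.46), Kcnc4 and Kcnc2 (0.44 each) and the silent subunit gene Kcns1 (0.39). Falling slopes were smaller, such as -0.17 for Kcna5, -0.16 for Kcna4, -0.14 for Kcnab1 and -0.13 for Kcnip2 and Kcnh4. Kcnh3, which differed most between the sets, had a slope of 0.02 with an adjusted p of 0.338 by limma. Without the 2 libraries farthest from the median score, 31 of 79 rose and 26 fell (3112 and 4843 of all 15329 genes). Within the numeric label 31 of 80 rose and 18 fell (2126 and 2746 of 15376 genes). Within E21 19 of 79 rose and 23 fell (2329 and 3778 of 15289 genes). With all 159 libraries in the fit, Th libraries and numeric library 3 included, 34 rose and 11 fell of 81 (2422 and 3782 of 15427 genes). Of the 59 called members, 21 then had the other sign, and 8 of these were called in the new direction. Kcnip2 and Kcnh4 were 2 of the 8, with slopes of 0.18 and 0.17.

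**Figure D3:**
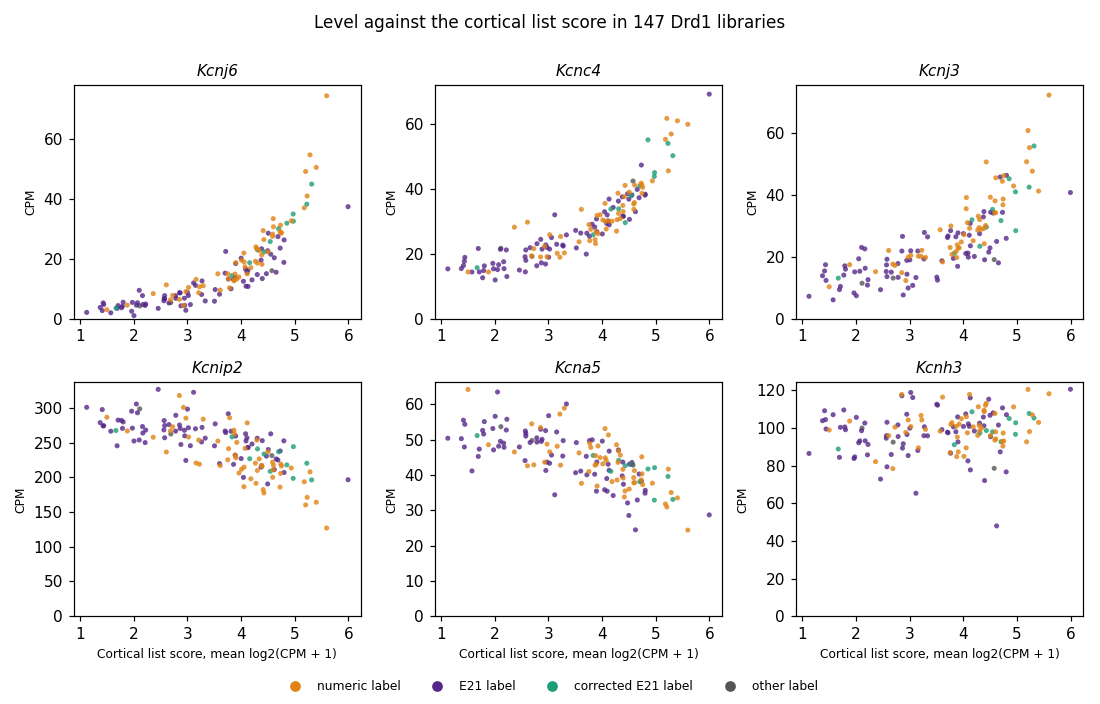
Level of 6 potassium channel genes (CPM) against the cortical list score (mean log2(CPM + 1) of 8 genes) in the 147 Drd1 libraries; each point is a library coloured by label. Kcnj6, Kcnc4 and Kcnj3 rose with the score (slopes 0.82, 0.44 and 0.46 log2 units per unit), Kcnip2 and Kcna5 fell (-0.13 and -0.17), and Kcnh3 had a slope of 0.02.

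The second comparison set E21-label against numeric-label libraries, restricted to Drd1 libraries (76 against 56), to see whether the format of the name went with the members' levels. In the linear model without the score, 4 of 80 members rose in E21 libraries (12.3% of all genes did) and 38 fell (26.6% of all), with a median change of -0.10 beside -0.03 over all genes. Under median-of-ratios scaling, the members gave 7 higher and 35 lower (2932 and 2864 of all 15327 genes). Under quantile normalization they gave 7 and 34 (3181 and 2797 of all genes). Over all genes, the share of higher among called genes was 31.6% in CPM, 50.6% under median-of-ratios scaling and 53.2% under quantile normalization. Mean cortical score was 3.98 ± 0.88 (SD, n = 56) in numeric and 3.18 ± 1.09 (SD, n = 76) in E21 libraries, so the labels differed in this score. With the score as a covariate 4 members rose (12.5% of all genes) and 39 fell (32.1%). With all 159 libraries in the fit, Th libraries included, 16 rose (17.9%) and 37 fell (30.9%) of 81 tested. The signs of 3 of the 42 called members then turned, each without a call: Kcnf1 from -0.44 to 0.10, Kcnh1 from -0.14 to 0.15 and Kcnab2 from -0.06 to 0.04. With all libraries and the score as a covariate together, 22 rose and 37 fell (3024 and 5353 of 15427 genes). The labels also differed in library total. Mean total estimated counts, in the unit used above, were 28.6 ± 9.1 (SD, n = 56) in numeric and 22.3 ± 4.9 (SD, n = 76) in E21 Drd1 libraries. With the library total as the covariate in place of the score, 4 members rose and 29 fell in the Drd1 libraries. Over all 15327 genes, 847 rose and 2468 fell in that fit, against 1887 and 4077 without a covariate.

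Members with the smallest p that fell were Kcnk10 (-0.44), Kcnab3 (-0.48), Kcnn1 (-0.30), Kcnk9 (-0.63), Kcnc2 (-0.56), Kcnc1 (-0.37), Kcnj6, Kcnj9 (-0.46), Kcnj3 (-0.58) and Kcnk3 (-0.35). Kcnj6 was 2.99 to 74.5 CPM (median 18.4) in numeric and 0.98 to 37.4 CPM (median 8.37) in E21 libraries. The ranges overlapped over most libraries, and the change was -0.93 (SE 0.16, adjusted p = 1.09e-06 by limma). It was -0.27 with the score as a covariate (adjusted p = 0.000711 by limma) and -1.27 with all libraries. Kcnk9 was 6.25 to 30.4 CPM (median 15.7) in numeric and 2.15 to 20.9 CPM (median 9.39) in E21 libraries, and its change of -0.63 was -0.35 with the covariate. Kcnk10, for the mechanosensitive TREK-2, was 1.5 to 6.95 CPM (median 2.88) against 0.65 to 5.73 CPM (median 1.92). All 4 Kv3 genes fell, but Kcnc4 changed by -0.38 without the covariate and by -0.03 with it (adjusted p = 0.583 by limma).

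The 4 that rose in E21 libraries were Kcnip2 (0.19, SE 0.03), Kcnk7 (0.28, SE 0.06), Kcnj2 (0.16, SE 0.05) and Kcnh4 (0.13, SE 0.04). Kcnip2 was 127 to 318 CPM (median 221) in numeric and 190 to 327 CPM (median 263) in E21 libraries. Kcnj2 and Kcnh4 lost the call with the score as a covariate, at 0.05 (adjusted p = 0.448) and 0.02 (adjusted p = 0.642) by limma. No Kv7 gene passed the test, with changes of -0.09 for Kcnq1 (adjusted p = 0.188 by limma), -0.07 for Kcnq3 and -0.03 for Kcnq5. Kcnj4, which differed by -4.74 between the sets, changed by 0.01 between the labels.

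**Figure D4:**
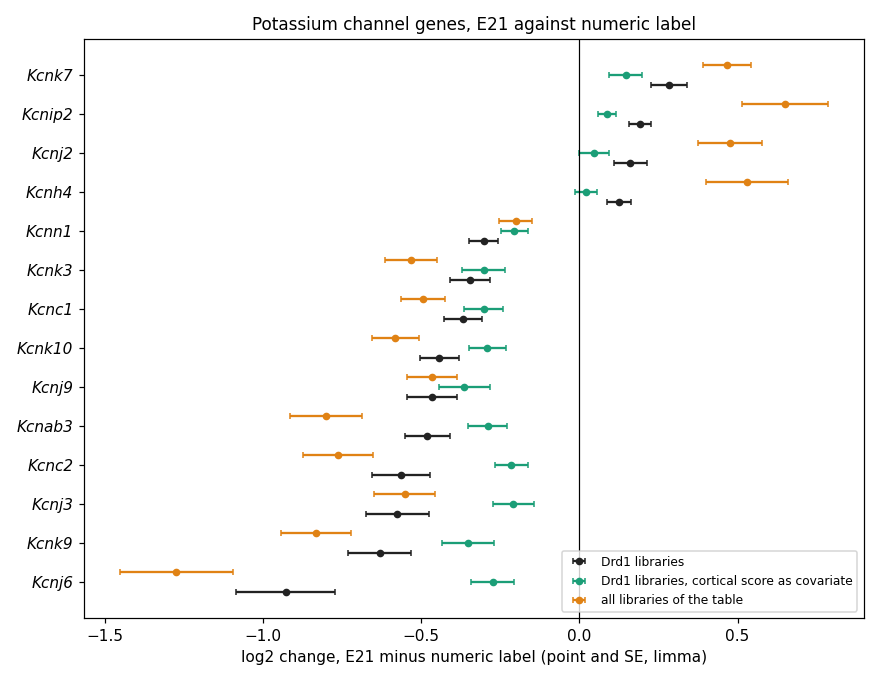
Change of log2(CPM + 1), E21 minus numeric label, for the 14 potassium channel genes named (points are limma estimates and bars standard errors): Drd1 libraries (black), the same with the cortical score as a covariate (green) and all libraries of the table (orange). Kcnj6 was at -0.93, -0.27 and -1.27 under these 3 fits.

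The third comparison set the 12 corrected E21 libraries, earlier labelled as unknown, against the 76 E21 libraries. Since it shares the E21 libraries with the comparison above, the signs of both are linked by design and each is given by its own values. In corrected libraries 28 of 80 members rose (9.38% of all genes did) and 2 fell (3.25% of all). Over all genes, the share of higher among called genes was 74.3% in CPM, 53.2% under median-of-ratios scaling and 52.7% under quantile normalization. Members stood at 22 higher and 2 lower under median-of-ratios scaling (1024 and 901 of 15327 genes). Under quantile normalization they also stood at 22 and 2 (1081 and 969 of all genes). Mean cortical score was 4.42 ± 0.97 (SD, n = 12) in the corrected libraries, and with the score as a covariate 17 members rose (13.5% of all genes) and 0 fell (3.24%) by limma, with 0 falling at an unadjusted p under 0.05. With that covariate 8 rose under median-of-ratios scaling (1029 of 15327 genes) and 12 under quantile normalization (1228 of all genes). With all libraries and the score in the fit 7 of 81 rose (839 of 15427 genes).

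Kcnj6 was 3.49 to 45.0 CPM (median 27.9) in the corrected libraries against 0.98 to 37.4 CPM (median 8.37) in E21 libraries. The change was 1.33 (SE 0.28, adjusted p = 0.000368 by limma), and 0.32 with the covariate, where it lost the call (adjusted p = 0.0503 by limma). Kcnk9, at 8.03 to 30.6 CPM (median 19.5) against 2.15 to 20.9 CPM (median 9.39), rose by 0.94 (SE 0.17, adjusted p = 0.000121 by limma) and by 0.51 with the covariate (adjusted p = 0.0166 by limma). Ranges overlapped for both genes. Kcnab3 rose by 0.67, Kcnj9 by 0.70, Kcnn1 by 0.42 and Kcnk3 by 0.47, each called with and without the covariate. Kcnc2 (0.74), Kcnc4 (0.63), Kcnk10 (0.45) and Kcnk12 (0.62) rose and lost the call with it. All 4 Kv3 genes rose without the covariate, and 0 of them passed with it, where Kcnc1 changed by 0.29 (adjusted p = 0.0503 by limma). The 2 that fell were Kcnip2 (-0.17, adjusted p = 0.0476) and Kcnk7 (-0.29, adjusted p = 0.0457) by limma, and both were close to the threshold.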

How the data were processed

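The authors deposited log2 values per gene from poly(A) RNA sequencing of 159 rat libraries. kallisto 0.48 quantified the reads, per the submitters' processing notes. The annotation, build and filters applied were not given in the sources used here. By their totals and fractions, these deposited log2 values behaved as log2 of an estimated count plus 1, not scaled to library size. They were turned back to estimated counts, divided by the library total to give CPM, and analysed as log2(CPM + 1). Because the unit was log2, no count model was used.

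Potassium channel genes, subfamilies, marker lists, partner genes and cutoffs were chosen with earlier results of these data known. Of the other labelled libraries, 32 had no matching genotype and 1 was removed by the submitters, and these were not analysed here. Labels gave the name format and any correction of the name, and the sets were read from Drd1 and Th. Label comparisons used limma 3.58.1 (R 4.3.3) with an intensity trend on genes of at least 1 CPM, with all label groups in the fit and Benjamini-Hochberg adjustment over all genes. It was tested on simulated data. Named were all members called between sets, the largest difference in each uncalled subfamily, members under 1 CPM in 1 set and at least 5 CPM in the other (none met this), up to 10 of smallest p per direction, the 5 most and 5 least variable, and well-known channels of these neurons. The highest correlation between 2 libraries was 0.994. Alternatives covered scaling, pseudocount (0.1 and 5), filters, cutoffs (50 and 150 CPM), library total and left-out libraries. A few genes are not reported here by name and are included in counts only.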

Additional observations from a re-analysis of the deposited data

Results flagged for a closer look

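Numeric library 3 belonged to neither set, and 29 of the 76 counted members were above the highest Drd1 library there and 12 below the lowest. The share of all genes outside that range was not computed, so these counts cannot be read as particular to potassium channel genes. Of the 29, 10 stood at least 1.5 times above the highest of the 147 Drd1 libraries, and they are given with that highest value. Kcnh3, for the ELK channel Kv12.2, was at 212 CPM against 121 CPM, and Kcnh7, for ERG3, at 101 CPM against 61.9 CPM. Of the GIRK genes, Kcnj3 was at 114 CPM against 72.3 CPM and Kcnj9 at 81.1 CPM against 36.5 CPM. Kcnc4, of the Kv3 family, was at 138 CPM against 69.2 CPM, and Kcnb2, of the Kv2 family, at 35.9 CPM against 18.4 CPM. Among K2P genes, Kcnk4 was at 35.0 CPM against 18.6 CPM and Kcnk10 at 10.7 CPM against 6.95 CPM. Kcnmb4, the neuronal BK beta subunit, was at 105 CPM against 65.5 CPM, and Kcnt2, a sodium-activated channel, at 33.0 CPM against 18.1 CPM. This is 1 library, without a replicate.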

How the results depend on the processing

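Between Th and Drd1 libraries the count of higher members was 16 with no rule on ranges, an alternative chosen after seeing the data. In both directions together that setting gave 38 members, beside 13.0% of all counted genes. The share of all genes for the higher direction alone was not computed, so the 16 have no background beside them. Every other alternative run there kept both counts within 1.5 times. For E21 against numeric libraries, the count of higher members was 16 with all libraries, 7 under median-of-ratios scaling, 7 under quantile normalization and 22 with all libraries and the cortical score together. For corrected against E21 libraries, the count of higher members was 12 with all libraries (648 of 15427 genes) and 17 with the cortical score. With cortical, oligodendrocyte and astrocyte scores as covariates, the count was 11 (1543 of 15327 genes). With the cortical score it was 8 under median-of-ratios scaling, 12 under quantile normalization and 7 with all libraries, combinations chosen after seeing the data, and 0 were lower in each of these 3 fits (limma; 0 also at an unadjusted p under 0.05). The count of lower members there (limma) was 0 with all libraries, with the cortical score, with the 3 scores, with the library total as a covariate and with no filter on low values, and 1 with a mean of at least 5 CPM and with a pseudocount of 0.1. At an unadjusted p under 0.05 those 5 fits with 0 gave 0, 0, 0, 2 and 3 lower members. Within the E21 label, 19 members rose with the cortical score, and with all libraries 11 fell. The causes of these shifts were not tested. Signs of called members turned for 3 of 42 (E21, all libraries), for Kcns1 with the cortical score (E21 from -0.25 to 0.06, corrected from 0.46 to -0.02), for 6 of 42 (E21, all libraries with the score) and for 21 of 59 slopes with all libraries. Among named genes with the falling slopes of smallest p, those that turned there became 0.076 for Kcna5, 0.18 for Kcnip2, 0.16 for Kcnab1, 0.17 for Kcnh4, 0.091 for Kcna4, 0.066 for Kcnj2 and 0.034 for Kcnt1. Other genes named above turned and were called in the new direction. They were Kcnj4 (-0.07 to 0.41), Kcnf1 (-0.13 to 0.28), Kcnq5 (-0.12 to 0.26), Kcns2 (-0.08 to 0.21) and Kcnj16 (0.16 to -0.22). Of the values for named genes, 15 moved and 315 did not between the sets. In the label comparisons, 8 values lost the call and 185 did not for E21, and 46 did and 118 did not for corrected libraries. For the score, limited to the slopes of smallest p per direction, 7 turned, 3 lost the call and 130 did neither. No paired analysis was possible because each library had a rat name of its own and the labels link no libraries to each other. Counting noise limits members near 1 CPM, and the 12 corrected libraries limit the precision of the third comparison.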
